A study of Mus musculus with 21 samples.

Results

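The genes described here are Dusp1, Dusp3, Dusp4, Dusp5, Dusp6, Spry1, Spry2, Spry4, Spred1 and Etv5, a set of 10 genes that hold back, or are switched on by, the kinase ERK. They were picked by name and role with measured values of these same libraries already known, so their values are a description and no value here lends support to the choice. All 10 were found in both tables, among 33829 genes listed for the pre-treatment mice and 55385 for the delayed treatment mice. All 10 passed the filter on low counts and were tested with 22641 and 21922 genes in all.

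RNA-seq was done on midbrain of male C57BL/6 mice aged 6 weeks per the labels, and the methods describe nigral tissue dissected by hand after perfusion. There were 21 mice in 7 groups of 3, all injected intraperitoneally over 10 days. MPTP, a neurotoxin used to damage dopaminergic neurons as in Parkinson's disease, was given at 30 mg/kg per day for 5 days. Irisin, a circulating peptide cut from the muscle protein FNDC5, was given at 200 µg/kg per day for 5 days. In the pre-treatment experiment, control mice had ddH2O for 10 days, MPTP mice had ddH2O for 5 days and then MPTP, and the irisin and MPTP mice had irisin for 5 days and then MPTP. In the delayed treatment experiment, control mice again had ddH2O for 10 days, irisin mice had ddH2O and then irisin, MPTP mice had MPTP and then 5 days of ddH2O, and the MPTP and irisin mice had MPTP and then irisin. The last injections before sampling were therefore MPTP or, in controls, ddH2O in the first experiment and ddH2O or irisin in the second. Total counts per mouse were 66.7 to 75.6 M (mega) in the pre-treatment mice and 48.8 to 77.2 M in the delayed treatment mice. The 7 dopaminergic neuron markers checked against the tissue label were all measured, with a summed level of 155 to 472 CPM (counts scaled to library size with the TMM factors of edgeR), and Pitx3 was at 0 in a mouse of 3 of the groups. A library that stood apart was that of the second MPTP mouse of the pre-treatment experiment, by its choroid plexus genes, and differences from MPTP mice are given without it for Dusp1, Dusp3, Dusp4, Dusp5, Dusp6 and Spry4.

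ERK is the last kinase of the Ras, Raf and MEK cascade, which growth factors and neuronal firing switch on. Dual-specificity phosphatases (DUSP) take the phosphates off ERK and related kinases, while Sprouty and Spred proteins act further up, on the way from receptor to Ras and Raf. Many of their genes are transcribed when ERK is active, which makes a negative feedback loop and makes their mRNA a common readout of recent ERK activity. These libraries hold only mRNA and not ERK phosphorylation. The paper measured the latter by western blot and reports that irisin restored its ratio to total ERK in MPTP mice of both experiments. Those blots were not set beside the mRNA values. In tissue RNA, fewer cells that express a gene and less of its RNA per cell cannot be told apart.

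The promoters of the 2 members that held a searched motif are shown because Dusp1, described below, had the highest ratio of highest to lowest level of the set in each experiment, 3.95 and 3.47. RefSeq promoter sequences (GRCm38.p6) were at hand for 8 of the 10 genes, and the 250 bases before the transcription start were searched. Capitals mark cAMP response elements (CRE; the full site TGACGTCA or its core TGACG, which the full site contains, on either strand) and CArG boxes, the site of the serum response factor.
Dusp1, chr17:26508473-26508722, minus strand: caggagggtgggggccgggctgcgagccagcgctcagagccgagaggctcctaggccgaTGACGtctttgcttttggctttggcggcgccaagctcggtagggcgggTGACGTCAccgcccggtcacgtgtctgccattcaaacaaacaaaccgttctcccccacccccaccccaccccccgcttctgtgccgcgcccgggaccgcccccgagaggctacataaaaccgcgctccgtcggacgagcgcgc
Dusp5, chr19:53528895-53529144, plus strand: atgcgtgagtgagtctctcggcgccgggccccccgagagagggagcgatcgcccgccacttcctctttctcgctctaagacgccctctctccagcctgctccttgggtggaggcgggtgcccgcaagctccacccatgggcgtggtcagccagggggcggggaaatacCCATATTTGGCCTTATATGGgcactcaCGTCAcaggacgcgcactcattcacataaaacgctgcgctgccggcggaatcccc
In Dusp1 a full CRE lay at -143 to -136 from the start and a separate core at -191 to -187. In Dusp5 a pair of adjacent CArG boxes lay at -82 to -73 and -72 to -63, with a CRE core at -55 to -51. The other 6 genes held none of the 6 motifs searched. Over all 32851 promoters in the table, 1.55% held a full CRE, 17.8% a core and 1.47% a CArG box. The AP-1 motif TGANTCA (6.75% of promoters), the ETS motif CCGGAA (12%) and the EGR motif GCGGGGGCG (2.57%) were in none of the 8. These are matches of letters and not measured binding sites.

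Levels between genes were compared per length, in FPKM (fragments scaled to gene length and to depth), over the control mice. In the pre-treatment experiment Dusp3 was at 30.5 ± 3.99 FPKM (SD, n = 3). Spred1 followed at 26.0 ± 1.1 FPKM (SD, n = 3), and the values of these 2 genes overlapped. Spry2 came next at 12.6 FPKM, then Etv5 at 9.43 and Dusp1 at 5.09. Dusp6 at 3.94 and Spry4 at 3.68 FPKM overlapped with each other. At the low end, Spry1 was at 2.0 FPKM, and Dusp4 at 1.21 and Dusp5 at 1.04 overlapped. The order in the delayed treatment controls was the same but for Dusp1, at 12.1 ± 2.68 FPKM (SD, n = 3), which overlapped there with Spry2 at 12 FPKM. The tables were made separately, so this shift of Dusp1 between controls of the experiments was not tested.

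**Figure D1:**
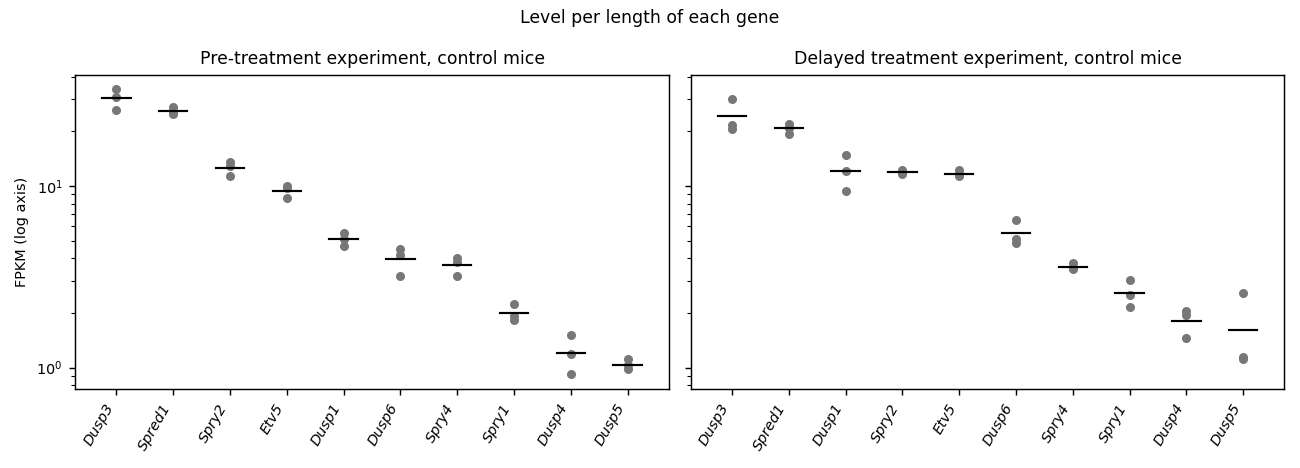
Level of each of the 10 genes in FPKM (log axis) in the 3 control mice of each experiment; points are mice and lines are means, genes ordered by mean. Dusp3 and Spred1 lead in both panels, Dusp4 and Dusp5 come last, and Dusp1 moves from 5.09 FPKM on the left to 12.1 FPKM on the right.

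Dusp1 encodes a nuclear phosphatase that acts on ERK, p38 and JNK and is itself an immediate early gene. The tables place it (ENSMUSG00000024190) at chr17:26505590-26562128 on the minus strand. The promoter shown above, before a RefSeq start, lies inside this span and not beyond its end. In the pre-treatment experiment its levels were 17.4, 19.6 and 20.2 CPM in the control mice and 27.8, 23.4 and 14.6 CPM after MPTP. The mice given irisin before MPTP had 11.7, 7.03 and 12.3 CPM. All 3 of these lay below every mouse of the other groups, while the MPTP mice lay on both sides of the controls. The difference between irisin before MPTP and MPTP was -1.08 ± 0.26 on the log2 scale (SE, n = 3 mice a group), a fold of 0.473. It did not pass over all genes (adjusted p = 0.425, Benjamini-Hochberg, edgeR quasi-likelihood test). Against control the difference was -0.88 ± 0.26 (SE), with an adjusted p of 0.524 in the same edgeR test. DESeq2, run without a filter on low counts, called the first of these differences with an adjusted p of 0.0123, and over all alternatives of that comparison adjusted p ran from 0.0123 to 0.758.

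In the delayed treatment mice Dusp1 was at 45.4, 35.3 and 55.9 CPM in control mice and at 51.7, 61.1 and 66.0 CPM after irisin alone. The mice given MPTP and then ddH2O had 19.5, 24.0 and 19.0 CPM. With irisin after MPTP the levels were 31.6, 48.2 and 45.4 CPM. The MPTP mice thus lay below all 9 others, and the mice with irisin after MPTP overlapped with the controls. MPTP against control gave -1.13 ± 0.19 (SE), a fold of 0.458, which missed the threshold (adjusted p = 0.0707, Benjamini-Hochberg, edgeR quasi-likelihood test). Without replicate 2 of the controls, the one with the least Dusp1, edgeR gave -1.28 with an adjusted p of 0.034. DESeq2 gave 1.02e-05 for all mice, and adjusted p ran up to 0.292 over the alternatives. Irisin after MPTP against MPTP gave 1.0 ± 0.19 (SE), a fold of 2.0, with adjusted p = 0.843 in edgeR and 0.000934 in DESeq2 (highest over the alternatives 1.0). Irisin alone against control gave 0.39 ± 0.19 (SE), with overlapping groups. The interaction, which asks whether irisin shifted Dusp1 differently with and without earlier MPTP, was 0.61 ± 0.27 (SE; adjusted p = 0.893 in edgeR).

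**Figure D2:**
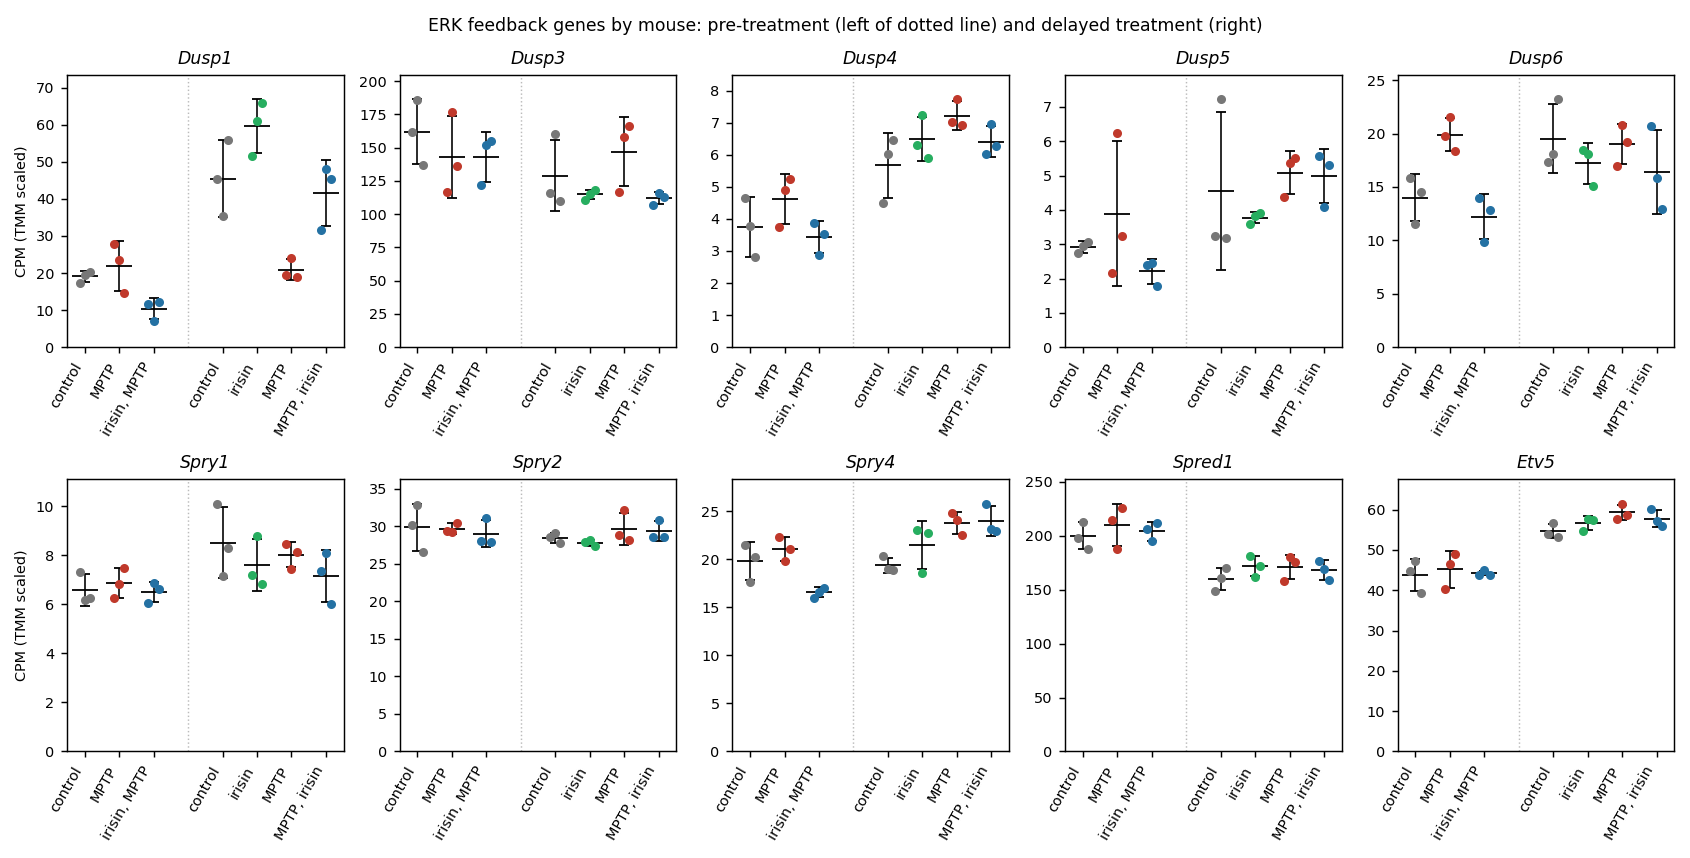
Level of each of the 10 genes in CPM (linear axis from 0) in every mouse, by group; points are mice, bars the mean and error bars the SD of 3 mice, and the dotted line parts the pre-treatment from the delayed treatment experiment. Dusp1 is lowest in the mice given irisin before MPTP on the left (7.03 to 12.3 CPM) and in the MPTP mice on the right (19.0 to 24.0 CPM), while Spry2 and Etv5 hardly move.

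Dusp6 encodes a cytoplasmic phosphatase that is specific for ERK and is among the most used transcriptional readouts of ERK. The tables place it (ENSMUSG00000019960) at chr10:99263231-99267489 on the plus strand. In the pre-treatment experiment it was at 15.8, 11.5 and 14.5 CPM in control mice, at 19.8, 21.5 and 18.4 CPM after MPTP, and at 14, 9.89 and 12.8 CPM with irisin before MPTP. Every MPTP mouse was above every mouse of the other groups. MPTP against control gave 0.51 ± 0.16 (SE), with an adjusted p of 0.815 in edgeR's quasi-likelihood test. Irisin before MPTP against MPTP gave -0.70 ± 0.16 (SE), with an adjusted p of 0.358 in that test and of 0.0163 in DESeq2 (highest over the alternatives 0.691). Without the second MPTP mouse these differences were 0.45 and -0.65. The irisin mice and the controls overlapped, at a difference of -0.19 ± 0.16 (SE). After delayed treatment Dusp6 was at 17.3, 18.1 and 23.2 CPM in controls, at 18.5, 18.1 and 15.1 after irisin, at 17.0, 20.8 and 19.2 after MPTP, and at 20.7, 15.8 and 12.9 after MPTP and irisin. These 4 groups overlapped, and the differences lay between -0.21 and -0.04 on the log2 scale for the 3 group comparisons.

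Dusp5 and Dusp4 encode nuclear phosphatases induced through ERK, and both were low. Dusp5 was at 2.74 to 3.07 CPM in the pre-treatment controls, at 2.16, 6.25 and 3.25 CPM after MPTP and at 2.40, 2.44 and 1.79 CPM with irisin before MPTP. The second MPTP mouse alone stood high. The difference of -0.81 ± 0.35 (SE) between irisin before MPTP and MPTP (adjusted p = 0.789, Benjamini-Hochberg, edgeR quasi-likelihood test) became -0.30 without that mouse, so it rested on 1 library. In the delayed treatment controls too a single mouse was high, with 3.25, 7.22 and 3.18 CPM, while the other 3 groups held 3.59 to 5.56 CPM. Dusp4 was at 2.81 to 4.65 CPM in pre-treatment controls, at 3.74 to 5.23 after MPTP and at 2.89 to 3.88 with irisin before MPTP, all overlapping. After delayed treatment Dusp4 was at 4.51, 6.03 and 6.46 CPM in controls and at 7.01, 7.73 and 6.92 CPM after MPTP. Those groups did not overlap, at a difference of 0.35 ± 0.15 (SE; adjusted p = 0.562 in edgeR). The counts behind these levels were low, 130 to 436 for Dusp5 and 195 to 606 for Dusp4 per mouse.

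Dusp3 encodes a small phosphatase that takes ERK and JNK as substrates. The values of the delayed treatment mice stood at separate levels that did not follow the groups. One control mouse was at 160 CPM and a pair of MPTP mice were at 158 and 166 CPM, while the other 9 mice lay between 107 and 118 CPM. Irisin after MPTP against MPTP gave -0.40 ± 0.15 (SE), with non-overlapping groups and an adjusted p of 1.0 in edgeR. It was the MPTP group that held both levels, at 117, 158 and 166 CPM. In the pre-treatment experiment Dusp3 ran from 117 to 186 CPM and the groups overlapped in all comparisons.

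The Sprouty genes encode inhibitors of receptor tyrosine kinase signalling. Spry4 was at 21.5, 17.6 and 20.2 CPM in pre-treatment controls, at 22.3, 19.8 and 21.1 CPM after MPTP and at 16, 16.6 and 17.0 CPM with irisin before MPTP. As for Dusp1, all 3 irisin mice lay below every mouse of the other groups, but the distance was small. Irisin before MPTP against MPTP gave -0.35 ± 0.10 (SE), and against control -0.26 ± 0.10 (SE), with adjusted p of 0.537 and 0.648 in edgeR's quasi-likelihood test. After delayed treatment Spry4 was at 20.3, 19.0 and 18.9 CPM in controls and at 24.8, 24.1 and 22.5 CPM after MPTP, a difference of 0.29 ± 0.10 (SE; adjusted p = 0.42 in edgeR). This is the opposite side from Dusp1, which was lower after MPTP in the same mice. With irisin after MPTP, Spry4 was at 25.8, 23.2 and 22.9 CPM, overlapping with MPTP alone at a difference of 0.01.

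Spry1, Spry2, Spred1 and Etv5 varied little over the groups. Spry2 stayed between 26.6 and 32.8 CPM over the pre-treatment mice and between 27.4 and 32.2 CPM over the delayed treatment mice, and its differences lay between -0.04 and 0.06 on the log2 scale. Spred1, which encodes an inhibitor of Ras and Raf, ran from 188 to 226 CPM and from 149 to 181 CPM, its largest difference between groups being 0.10 ± 0.07 (SE). Spry1 ran from 6.06 to 7.49 CPM and from 6.03 to 10.1 CPM, and no comparison of it reached an unadjusted p under 0.05. Etv5, an ETS transcription factor whose gene is a target of ERK signalling, ran from 39.3 to 48.9 CPM and from 53.3 to 61.5 CPM. Its delayed treatment MPTP mice, at 57.6 to 61.5 CPM, lay above the controls at 53.3 to 56.6 CPM, a difference of 0.12 ± 0.06 (SE; adjusted p = 0.623 in edgeR). Over the delayed treatment mice the ratio of highest to lowest level was 1.15 for Etv5, 1.18 for Spry2 and 1.21 for Spred1, against 3.47 for Dusp1. For Spry1 it was 1.67, above the 1.55 of Dusp3, so single mice differed more in Spry1 than in the other 3.

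**Figure D3:**
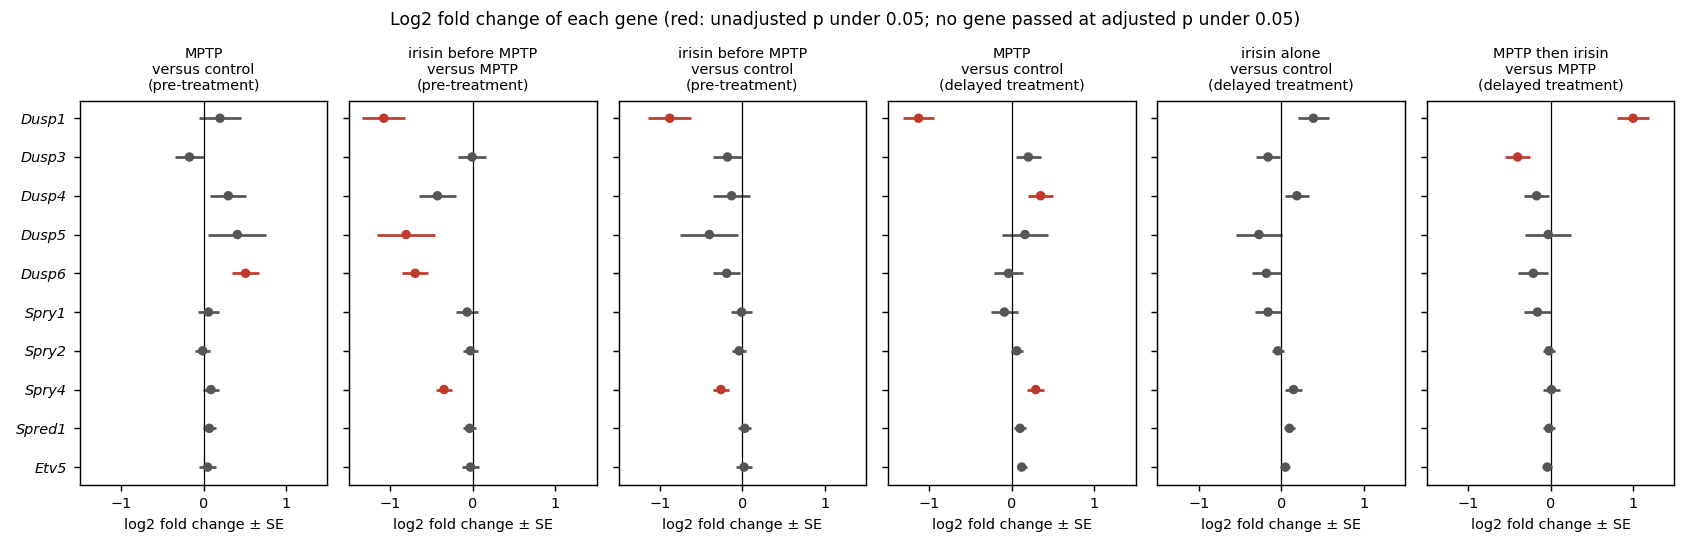
Log2 fold change with its SE (horizontal line) of each of the 10 genes in the 6 group comparisons, from edgeR; red marks an unadjusted p under 0.05. Dusp1 is furthest from 0 in every panel but the first, where Dusp6 is at 0.51, and lies at -1.08, -0.88, -1.13, 0.39 and 1.0, and Spry1, Spry2, Spred1 and Etv5 stay near 0 throughout.

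The counts of members were set beside the shares over all genes tested. No member passed an adjusted p under 0.05 in any of the 7 tests in edgeR fitted with all mice. In MPTP against control of the pre-treatment experiment, where 0.0221% of all genes passed, 1 member was higher and 0 lower at an unadjusted p under 0.05, against 3.36% and 2.67% of all genes. The groups did not overlap for 1 member, against 11.6% of genes. In irisin before MPTP against MPTP (0.0707% of genes passed), 0 members were higher and 4 lower at an unadjusted p under 0.05, against 2.93% and 3.29%, and 3 did not overlap, against 14.2%. All 10 differences were below 0, from -1.08 to -0.01, with a median of -0.21 beside 0.003 for all genes. Without the second MPTP mouse, Dusp3 was at 0.17 and the other 9 stayed below 0, from -1.03 to -0.01. In irisin before MPTP against control (0.0707%), 0 were higher and 2 lower, against 3.49% and 3.63%, and 3 did not overlap, against 13.6%. These comparisons share their irisin or their MPTP mice.

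In MPTP against control of the delayed treatment experiment, where 0.132% of genes passed, 2 members were higher and 1 lower at an unadjusted p under 0.05, against 4.32% and 4.01% of genes. The groups did not overlap for 4 members, against 16.2%. The members' median was 0.11 beside -0.001 for all genes, so Dusp1 stood on the other side from most of the set. In irisin alone against control (0.109% passed), 0 were higher and 0 lower, against 4.53% and 4.44%, and 0 were without overlap, against 15.1%. In irisin after MPTP against MPTP (0.00456% passed), 1 was higher and 1 lower, against 2.06% and 1.85%, and 2 did not overlap, against 10.7%. For the interaction (0.0411% passed), 1 was higher and 0 lower, against 2.81% and 2.76%. DESeq2, which called more genes than edgeR in every test, called 2 members in irisin before MPTP against MPTP, where it called 169 of 33731 genes. It called 1 member in delayed MPTP against control, beside 179 of 33428 genes, and 1 in irisin after MPTP against MPTP, beside 34 of 33428. With 10 genes a single member is 10% of the set, so these counts are read only as a description.

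The other genes of the pathway were taken from lists by role. The immediate early genes, transcribed within minutes of stimulation through ERK, calcium and the serum response factor are the group to which Dusp1 belongs. In irisin before MPTP against MPTP, 10 of 17 were lower at an unadjusted p under 0.05 and 3 passed an adjusted p under 0.05 in edgeR. Fos, a subunit of the AP-1 transcription factor, was at 29.3, 31.5 and 28.4 CPM after MPTP and at 8.20, 6.22 and 9.89 CPM with irisin before MPTP, and fell by 1.88 ± 0.22 on the log2 scale (SE; adjusted p = 0.021, Benjamini-Hochberg, edgeR quasi-likelihood test). Btg2, an antiproliferative gene, fell by 1.26 ± 0.14 (SE; adjusted p = 0.0179 in edgeR), and Jun, the partner of Fos, fell by 0.67 ± 0.07 (SE; adjusted p = 0.0195 in edgeR). Against control the counts were again 10 lower and 3 called, Fos, Btg2 and Jun, with the same irisin mice on 1 side. Leaving out any of 4 of the 6 mice for Btg2, 5 for Jun and all 6 for Fos ended the first of these calls, with the direction kept, as did the replicate block. Fitting the compared groups alone also ended these first calls for Btg2 and Jun. The calls against control ended without any of the 6 mice for Btg2 and Jun and without 5 of the 6 for Fos, and under 4, 4 and 3 of 8 other settings. In delayed MPTP against control 7 of 18 were lower and 2 higher at an unadjusted p under 0.05. Btg2 fell by 1.89 ± 0.27 (SE; adjusted p = 0.0236 in edgeR), and Zfp36, a gene for an mRNA decay factor, fell by 1.63 ± 0.25 (SE; adjusted p = 0.0361 in edgeR). These calls ended without 3 of the 6 mice for Btg2 and 5 for Zfp36, and under 2 and 3 of 8 other settings. Arc, a synaptic immediate early gene, was at 0.38 ± 0.12 (SE), on the other side. In irisin after MPTP against MPTP, 5 were higher and 1 lower at an unadjusted p under 0.05 and none passed in edgeR, with Btg2 at 1.28 ± 0.27, Zfp36 at 1.06 ± 0.25 and Arc at -0.48 ± 0.12 (SE).

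The rest of the pathway gave no call at an adjusted p under 0.05 in any test in edgeR fitted with all mice and groups of an experiment. With the compared groups fitted alone, Nras of the core cascade passed in irisin after MPTP against MPTP, as given below. Of 6 other MAP kinase phosphatases, at most 1 had an unadjusted p under 0.05 in a comparison. In irisin before MPTP against MPTP these 6 had a median of 0.23, beside -0.21 for the members. At an unadjusted p under 0.05, 0 were lower there and 1 was higher, Dusp9 at 1.32 ± 0.57 (SE). Dusp9 was very low, at 0.493 CPM with irisin before MPTP and 0.196 CPM after MPTP. Other examples are Dusp10 at -0.37 ± 0.11 (SE) in delayed MPTP against control and Dusp7 at -0.23 ± 0.09 (SE) in irisin after MPTP against MPTP. Of 8 other feedback inhibitors tested, Errfi1, which blocks the EGF receptor, lay like Dusp6. It was at 0.41 ± 0.11 (SE) in pre-treatment MPTP against control and at -0.40 ± 0.11 (SE) with irisin before MPTP against MPTP. Of these 8, 2 were higher in the former and 1 lower in the latter at an unadjusted p under 0.05, with 0 the other way. Of the 10 genes of a MAPK pathway activity score, a published list that also holds Dusp4, Dusp6, Spry2, Spry4 and Etv5, Epha2, a receptor tyrosine kinase, lay alike, at 1.34 ± 0.35 and -1.42 ± 0.35 (SE). Epha2 was low, at 2.40 CPM after MPTP and 0.945 CPM in controls. At an unadjusted p under 0.05, 2 score genes were higher in the former comparison, Epha2 and the member Dusp6. In the latter 3 were lower, Epha2 and the members Dusp6 and Spry4. Of 16 genes of the core cascade at most 2 had an unadjusted p under 0.05 in a comparison, such as Sos1, which encodes an exchange factor that loads Ras with GTP, at -0.19 ± 0.07 (SE) in irisin before MPTP against MPTP. Of 20 growth factors and receptor tyrosine kinases up to 5 were higher and up to 3 lower in a comparison. In irisin before MPTP against control 5 were higher and 2 lower, with a median of 0.09. There Egf was at 0.60 ± 0.19, Ntrk3 at 0.20 ± 0.06 and Fgfr2 at -0.53 ± 0.14 (SE). Of 7 other ETS factors at most 1 was higher and 1 lower, with Elk1 at 0.31 ± 0.12 (SE) and Ets1 at -0.28 ± 0.10 (SE) in pre-treatment MPTP against control.

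The genes with the pattern most like Dusp1 were sought among 21153 genes tested in both experiments. Likeness was the root mean square difference of centred log2 CPM over the 21 mice, divided by the SD of Dusp1, so that 0 is an identical pattern. The nearest were Nr4a1 at 0.415, Ier2 at 0.442, Sik1 at 0.459, Junb at 0.549 and Zfp36 at 0.553. Within the delayed treatment controls, replicate 2 had the least and replicate 3 the most of Dusp1 and of all 5, for example 22.4, 17.6 and 36.0 CPM of Nr4a1. These 5 genes were picked for likeness over these same mice, so the shared order is part of the choice. With irisin before MPTP, Sik1 was at 7.68, 7.71 and 9.03 CPM against 15.2, 16.8 and 14.7 CPM after MPTP, and the groups did not overlap. For Dusp6, the nearest were Ergic2 at 0.682, Apba2 and Atp2b4 at 0.705, Rnf44 at 0.707 and P4ha2 at 0.712, which are much less alike in this measure than the neighbours of Dusp1. The SD that scales it was 0.287 for Dusp6 and 0.597 for Dusp1.

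**Figure D4:**
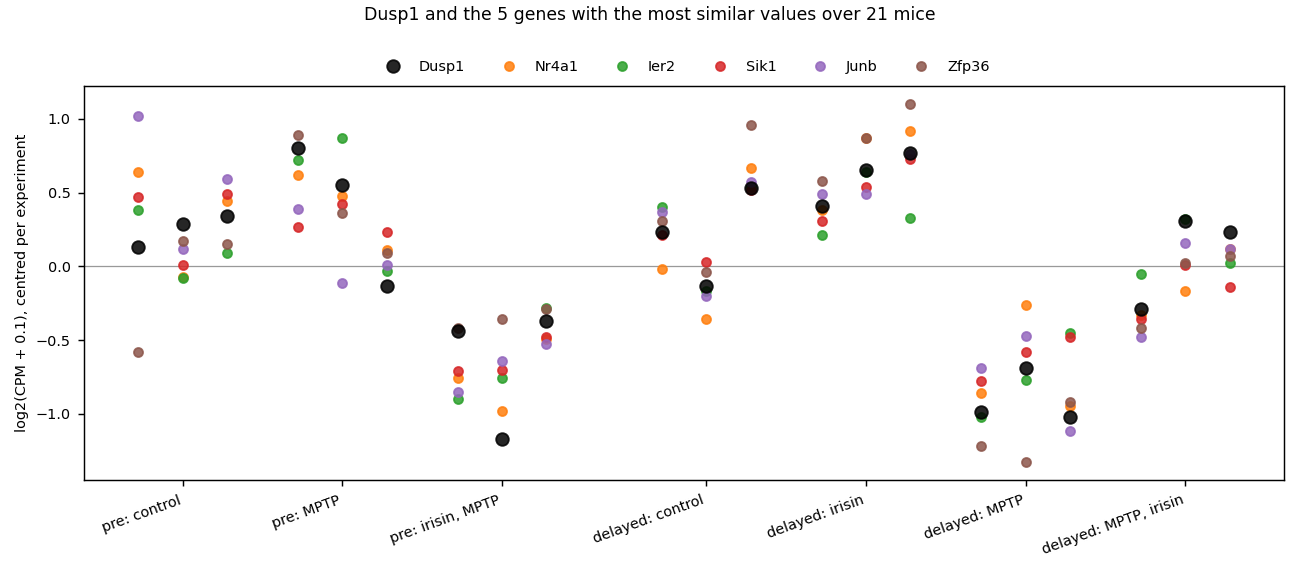
Log2(CPM + 0.1) of Dusp1 (black) and of the 5 genes with the most similar values, centred on each gene's mean within each experiment, for each of the 21 mice by group. Dusp1 averages -0.66 in the mice given irisin before MPTP and -0.90 in the delayed treatment MPTP mice, where the other 5 genes are below 0 in every mouse too.

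Markers of other cells were set beside these results. The 5 red blood cell genes were all lower at an unadjusted p under 0.05 with irisin before MPTP than in MPTP and in control mice, with medians of -0.93 and -0.89. Their summed level was 231 to 455 CPM with irisin before MPTP, 549 to 810 CPM after MPTP and 530 to 826 CPM in control, lowest in the group where Dusp1 was lowest. In the other experiment the sum was 309 to 500 CPM after MPTP, 459 to 609 in control, 468 to 523 after irisin and 383 to 870 after MPTP and irisin. Of 7 heat shock genes, 5 were lower at an unadjusted p under 0.05 with irisin before MPTP than in MPTP mice, and Hspa1b and Dnajb1 passed in edgeR. Hspa1b fell by 3.0 ± 0.21 on the log2 scale (SE; adjusted p = 0.000975, Benjamini-Hochberg, edgeR quasi-likelihood test). In delayed MPTP against control, where Dusp1 was at -1.13, 2 heat shock genes were higher and 1 lower at an unadjusted p under 0.05, with a median of -0.01. There Dnajb1 was at 0.33 ± 0.06, Hspa1b at 0.60 ± 0.23 and Hsp90aa1 at -0.51 ± 0.12 (SE). In irisin after MPTP against MPTP 1 was higher and 0 lower. The part of blood and of the heat shock genes in the values of Dusp1, Dusp6 and Spry4 was not tested.

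Markers of choroid plexus, the epithelium of the brain ventricles, summed to 1630 CPM in the second MPTP mouse of the pre-treatment experiment and to 10.3 to 27 CPM in the other 8 mice. This was the mouse with the high Dusp5. Without it, irisin before MPTP against MPTP was -1.03 for Dusp1, -0.39 for Spry4 and -0.39 for Dusp4, and MPTP against control was -0.11 for Dusp5, beside 0.41 with it. In the other experiment the sums ran from 38.8 to 1650 CPM, with high and low mice in 3 of the 4 groups and 61.4 to 293 CPM after irisin alone. The medians of the lists for neurons, astrocytes, microglia, oligodendrocytes and their precursors and endothelial cells stayed within -0.23 and 0.18 on the log2 scale in the group comparisons, and no marker of these lists was at 0 in any mouse. Single markers had an unadjusted p under 0.05, and none passed in edgeR. In irisin before MPTP against MPTP the endothelial Cldn5 was at 0.53 ± 0.09, the microglial Cx3cr1 at 0.41 ± 0.15 and the astrocytic Aqp4 at -0.47 ± 0.14 (SE), and in pre-treatment MPTP against control Cldn5 was at -0.44 ± 0.09 and Cx3cr1 at -0.69 ± 0.15 (SE).

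The 7 dopaminergic markers had their lowest medians in the 3 comparisons where Dusp1 was below 0. The median was -0.55 in irisin before MPTP against MPTP, with 2 lower at an unadjusted p under 0.05, and -0.68 in irisin before MPTP against control, with 3 lower. In the latter Slc6a3, the dopamine transporter, was at -1.57 ± 0.24 and Th, the rate-limiting enzyme of dopamine synthesis, at -0.80 ± 0.26 (SE). In delayed MPTP against control the median was -0.58, with 3 lower, while in irisin after MPTP against MPTP, where Dusp1 lay higher, it was -0.23 with 0 lower. For pre-treatment MPTP against control the median was 0.16 with 1 lower, Slc6a3 at -0.68 ± 0.23 (SE), while Dusp1 was at 0.20 there. For irisin alone the median was -0.17 with 0 lower. Slc6a3 and Nr4a2 were among the lower markers in each of the 3 comparisons where Dusp1 was below 0. Slc6a3 was at -0.89 ± 0.23, -1.57 ± 0.24 and -1.08 ± 0.37 (SE), in the order given. Nr4a2 was at -0.85 ± 0.26, -0.68 ± 0.26 and -0.58 ± 0.18 (SE), in the same order. The part of these neurons in the values of Dusp1 and the immediate early genes was not tested.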

How the data were processed

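RNA of 21 midbrain samples was sequenced on an Illumina instrument. The authors counted reads per gene with featureCounts and deposited these raw counts for each mouse beside FPKM values. The submitters' processing notes name HISAT, StringTie, edgeR and the build mm9, with no roles. Gene coordinates in the tables were, however, identical to GENCODE M21 (GRCm38) for 92.0% and 93.9% of genes. The use of strand in counting is not given in the sources used here. Dusp3, Dusp5 and Spry1 overlap exons of opposite-strand genes over 604, 547 and 710 bases, and Dusp1 shares 11 exon bases with Ergic1. The tables' other columns hold annotation, and no fold change or p-value of the authors was used.

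Each experiment was fitted alone in edgeR 4.0.16 (R 4.3.3), with all its groups, TMM factors (0.972 to 1.02), filterByExpr (least count 10, least total 15), the two-sided quasi-likelihood test, and p-values adjusted by Benjamini-Hochberg over all tested genes. The threshold was 0.05. CPM were computed from counts. Alternatives were DESeq2 1.42.0, limma 3.58.1 on log2(FPKM + 1) and log2(FPKM + 0.1), other scaling and filters, the compared groups alone, a replicate block and leaving out each mouse. The script was tested on simulated data. The labels name replicates but not how the mice were housed or dissected, and p-values measure only the spread between these samples. Depth was 48.8 to 77.2 M (mega) counts, and the number of mice limits the precision.

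The members, the gene lists and the markers were chosen with earlier results of these data known. By rule, all members were named, with list genes called in edgeR or, up to 4 a list, having the smallest unadjusted p under 0.05, and the 5 genes most like Dusp1 and Dusp6. Some results on the core cascade are not reported here.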

Additional observations from a re-analysis of the deposited data

Results flagged for a closer look

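For 8 of 32 genes looked at, every mouse given irisin before MPTP lay on 1 side of the MPTP mice of its experiment, and every mouse given irisin after MPTP lay on the opposite side of the MPTP mice of the other experiment. The 32 were the members and the listed genes with a small unadjusted p in either of these comparisons, so their share lends no support. Over all 21153 genes tested in both experiments, 163 (0.771%) did the same, among them Sik1, which is in none of the lists, and 14.2% and 10.7% of genes did not overlap in the respective comparison. The experiments were fitted apart, so the difference between them was not tested, and the time from the last MPTP injection to sampling differed too.

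Among the members this held for Dusp1, at -1.08 with irisin before MPTP and 1.0 with irisin after MPTP on the log2 scale. Of the other MAP kinase phosphatases it held for Dusp7, at 0.23 and -0.23. The other 6 were immediate early genes. Btg2 was at -1.26 and 1.28, Fos at -1.88 and 0.49, Fosb at -1.16 and 0.53, Ier2 at -1.23 and 0.85, Jun at -0.67 and 0.16, and Zfp36 at -0.86 and 1.06. By the edgeR quasi-likelihood test (Benjamini-Hochberg) the first value passed for Btg2, Fos and Jun, and the second passed for none of the 8.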

How the results depend on the processing

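No called difference turned its direction under an alternative. DESeq2 without a filter called 2 members in irisin before MPTP against MPTP, 1 in delayed MPTP against control and 1 in irisin after MPTP against MPTP. In these tests edgeR called 0 members, and over all genes DESeq2 called 169 of 33731, 179 of 33428 and 34 of 33428, in that order. For irisin alone DESeq2 gave 1 member at an unadjusted p under 0.05, where edgeR gave 0. Limma gave 1 member at an unadjusted p under 0.05 in irisin before MPTP against control with either pseudocount, where edgeR gave 2, 1 for irisin alone with log2(FPKM + 1), and 0 for the interaction with either pseudocount, where edgeR gave 1. The cause was not tested.

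With each mouse left out in turn, members at an unadjusted p under 0.05 were 1 to 2 in pre-treatment MPTP against control, 3 to 5 in irisin before MPTP against MPTP, 1 to 2 in irisin before MPTP against control, 2 to 5 in delayed MPTP against control, 0 to 1 for irisin alone, 1 to 2 in irisin after MPTP against MPTP and 0 to 2 for the interaction. Members called were 0 to 1 in delayed MPTP against control, the 1 being Dusp1 without control replicate 2, and 0 elsewhere. The median log2 fold change of the members ran from -0.2 to -0.07 in irisin before MPTP against control, from 0.0 to 0.09 for irisin alone and from -0.14 to -0.01 for the interaction. It ran from 0.05 to 0.13 in pre-treatment MPTP against control, from -0.23 to -0.18 in irisin before MPTP against MPTP, from 0.05 to 0.14 in delayed MPTP against control and from -0.1 to 0.0 in irisin after MPTP against MPTP. Of the single-gene values of members and pathway lists, 40 lost and 1 gained a call with a mouse left out. Under the other settings 21 lost and 18 gained one. All losses were of the edgeR calls of Fos, Btg2, Jun and Zfp36 named above. Only these calls could be lost, and each was tried with 6 mice left out in turn and under 8 other settings.

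Replicate numbers did not pair the mice, with correlations of same-numbered mice from -0.078 to 0.101 in the pre-treatment and -0.076 to 0.039 in the delayed treatment experiment. The replicate block called 0 members in all 7 tests, and 3 were at an unadjusted p under 0.05 in irisin before MPTP against MPTP, where the fit without it gave 4. Over all genes, the calls in irisin before MPTP against MPTP were 16 in edgeR, 8 with the replicate block and 169 in DESeq2, and those in delayed MPTP against control were 29 in edgeR, 10 with the compared groups alone and 179 in DESeq2. In the other tests, in the order of the report, calls were 5 (2 to 91 over the alternatives), 16 (2 to 191), 24 (14 to 145), 1 (1 to 34) and 9 (3 to 62).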

Other observations

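The levels of Dusp3 in the delayed treatment experiment were followed up after its values had been seen. The genes nearest to it by the same measure of likeness over 21 mice were Pop7 and Daxx, both at 0.687, Kank2 at 0.712, Stap2 at 0.719 and Natd1 at 0.746. In this scaled measure none was as near to Dusp3 as Nr4a1, at 0.415, was to Dusp1. The SD that scales it was only 0.225 for Dusp3, against 0.597 for Dusp1.

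Nras, the Ras gene of the core cascade with the widest difference, was at 43.3 ± 4.59 CPM with irisin after MPTP and at 9.04 ± 1.43 CPM after MPTP (SD, n = 3). The difference was 2.26 ± 0.78 (SE), with an adjusted p of 1.0 in edgeR's quasi-likelihood test over all 4 groups, and it passed an adjusted p under 0.05 when the compared groups were fitted alone.

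Egr1, an immediate early gene often read with Fos, was at 78.2, 31.7 and 64.8 CPM in the pre-treatment controls and at 58.5, 42.2 and 89.5 CPM in the delayed treatment controls. The highest and lowest control mouse of each experiment thus differed more than 2-fold. The mice given irisin before MPTP ranged from 23.0 to 29.3 CPM, and the MPTP mice of that experiment were at 61.1, 31.9 and 49.4 CPM. In the delayed treatment experiment, mice given irisin alone ranged from 62.1 to 74.1 CPM. There MPTP mice were at 48.1, 76.0 and 45.5 CPM, and mice given irisin after MPTP at 72.2, 74.3 and 62.0 CPM. The experiments were fitted apart, so levels were not compared between them.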
